A study of Danio rerio with 6 samples.

Results

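The genes described here encode 10 transcription factors of the endocardium: klf2a and klf2b, gata4, gata5 and gata6, nfatc1, erg, tal1, sox7 and sox18. They were picked by symbol, as known regulators of endocardial and endothelial identity and of the response to blood flow, and all 10 were found among the 17835 genes that the table lists. RNA was sequenced from EGFP+ cells sorted from cryoinjured ventricles of adult AB zebrafish aged 3 to 12 months at 96 hours post cryoinjury (hpci). The mutant allele is myd88 hu3568. All fish carried the enhancer trap line ET(krt4:EGFP)sqet33-1A, which drives EGFP in the endocardium. The 3 myd88-/- libraries came from homozygous mutants, and the 3 myd88+/+ libraries from wild-type siblings. Each library was a pool of 4 ventricles, so a library is not an individual fish, and the whole heart lacked MyD88, not the endocardium alone.

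Endocardial cells form the inner lining of the heart and are specialized endothelial cells. Klf2 proteins are zinc finger factors whose genes are switched on by shear stress, and in zebrafish embryos klf2a is the classical marker of flow in the valve-forming endocardium. Gata4, Gata5 and Gata6 act in endocardium, myocardium and epicardium, Nfatc1 marks the endocardium and its valve cushions, Erg is an ETS factor that maintains endothelial identity, Tal1 is needed for endocardial as well as blood development, and Sox7 and Sox18 belong to the SoxF group that controls vessel formation. The comparison of genotypes asks whether the RNA of these regulators depends on MyD88, the adaptor of Toll-like receptor signaling, in the injured endocardium.

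Values are normalized read counts, that is, reads per gene divided by a scaling factor per library. They summed to between 11136966 and 11847536 per library, so a high value has a small counting error and the spread between pools sets the precision. myd88 itself had 817, 575 and 849 in myd88-/- libraries, against 1305, 1149 and 1070 in myd88+/+ libraries (limma adjusted p = 0.150). Of 34 endothelial and endocardial markers, 31 were measured, with summed levels of 114172 to 178072 in myd88-/- and 138253 to 171697 in myd88+/+ libraries. All 31 had a mean above 5, as had 16383 of the 17835 genes listed. This does not show that the sorted cells were endocardial. The library myd88-/- replicate 3 stood apart, with 252 genes more than 2-fold above each other library and with 44876 for krt4, against 12266 to 23289 in the others. Markers of other cell types were also measured. Cardiomyocyte markers (17 of 19 measured) summed to 19371 to 26660 in myd88-/- and 19021 to 29926 in myd88+/+ libraries, among them myl7 with 4324 to 6307 and 4431 to 6690. Epicardial and fibroblast markers (19 of 22) summed to 333703 to 363460 and 361069 to 412400, with the collagen genes col1a1a, col1a2 and col1a1b the most abundant. Activated endocardium can express these collagen genes too. The epicardial factor tcf21 had 19 to 111 and 45 to 76. That gene alone does not show how much of the sum came from epicardial or fibroblast cells. Macrophage markers (19 of 20) summed to 2929 to 6325 and 3943 to 7942, with 132 to 266 and 175 to 345 for mpeg1.1. Of the macrophage markers, 17 were lower and 2 higher in myd88-/- libraries, where 51.1% of all genes tested were higher. Of the 19, 0 were past the criteria in limma, against 0.702% of all genes tested. An unadjusted p under 0.05 was reached by 5, all lower, against 6.97% of all genes tested in that direction. Neutrophil markers (6 of 13) summed to 506 to 997 and 522 to 895. Among those not listed were mpx, lyz, npsn, cxcr1 and cxcr2, so this sum does not show the level of neutrophil RNA. The part of these other cell types in the results below was not tested. Red cell and thrombocyte markers (15 of 18) summed to 10293 to 13505 and 6982 to 10885. Nearly all of this was thbs1b, so the sum follows 1 gene and does not show the level of red cell or thrombocyte RNA. By contrast, hbaa1 was at 68 to 223 and 6 to 143 and itga2b at 9 to 17 and 13 to 21. No measured marker of these lists was at 0 in every library. In such bulk samples, fewer cells of a type and less RNA per cell cannot be told apart.

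A gene was past the criteria when its adjusted p was under 0.05 (limma, Benjamini-Hochberg over all genes tested) and its change exceeded 1.5-fold. All 10 factors had a mean value above 5 and were tested, and 0 of the 10 were past the criteria in limma, against 0.702% of the 16383 genes tested. An unadjusted p under 0.05 was reached by 4 of the 10, klf2b, gata4, nfatc1 and erg, against 13.2% of all genes tested. The genotypes did not overlap in 4 of the 10, gata4, nfatc1 and erg in the higher direction and klf2a in the lower, against 18.1% of all genes tested, 9.09% in the higher and 8.98% in the lower direction. The median log2 fold change of the 10 was 0.12, against 0.0093 over all genes tested, with 6 higher and 4 lower in myd88-/- cells, where 51.1% of all genes tested were higher. On leaving out myd88-/- replicate 1 that median was 0.027, and on leaving out myd88-/- replicate 3 it was 0.19. The estimates of all 10 lay between -0.45 and 0.53 on the log2 scale, within the 1.5-fold limits.

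**Figure D1:**
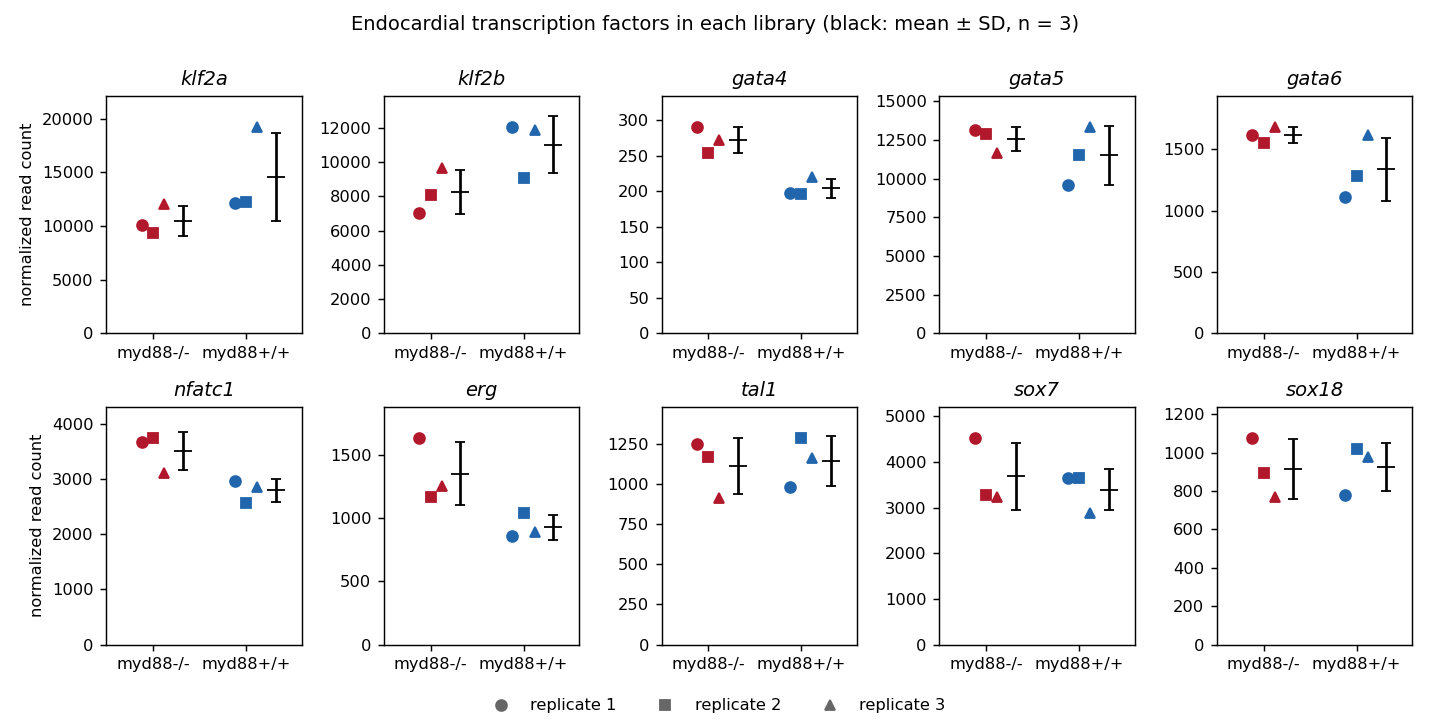
Normalized read count (y axis, from 0, a scale of its own in each panel) of the 10 transcription factor genes in the 3 myd88-/- (red) and 3 myd88+/+ (blue) libraries, with symbols for the replicates and black bars for the mean ± SD. The genotypes are apart for klf2a, gata4, nfatc1 and erg and overlap for the other genes, and the myd88+/+ value of 19271 for klf2a stands above the other 5.

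The flow-responsive genes klf2a and klf2b were both lower on average in myd88-/- endocardium (mean 10508 ± 1394.5 against 14576 ± 4066 for klf2a, and 8245 ± 1305 against 11012 ± 1676 for klf2b, SD, n = 3), without passing the test. For klf2a (ENSDARG00000042667, chromosome 22, 15898221 to 15900919, danRer11), values were 10132, 9340 and 12052 in myd88-/- libraries, against 12192, 12264 and 19271 in myd88+/+ libraries. The genotypes did not overlap, but the highest mutant value and the lowest wild-type value were close, and 1 wild-type library was far above the rest. On the log2 scale klf2a differed by -0.45 ± 0.20 (SE, 95% interval -0.90 to 0.013, limma adjusted p = 0.393). The estimate was only -0.23 when myd88+/+ replicate 3 was left out, and with libraries scaled to equal totals it was -0.39 and the genotypes overlapped.

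For klf2b (ENSDARG00000040432, chromosome 2, 55665095 to 55673225), values were 7039, 8066 and 9630 in myd88-/- libraries, against 12073, 9080 and 11882 in myd88+/+ libraries. Here the mutant library myd88-/- replicate 3 lay above the lowest wild-type library, so the genotypes overlapped. The log2 fold change of klf2b was -0.42 ± 0.17 (SE), with a 95% interval of -0.80 to -0.031, an unadjusted p of 0.0373 and a limma adjusted p of 0.346. The library that was highest for klf2a, myd88+/+ replicate 3, was close to the highest for klf2b, with 11882 against 12073 in myd88+/+ replicate 1. Within a library, the log2 ratio of klf2a to klf2b averaged 0.35 ± 0.16 in the mutants and 0.38 ± 0.34 in the wild type (SD, n = 3 each), differing by -0.028 (exact two-sided permutation p = 1, where 3 against 3 cannot give less than 0.1). The values of both genes together were 17171, 17406 and 21682 in myd88-/- libraries, against 24265, 21344 and 31153 in myd88+/+ libraries, and overlapped by a small margin (exact permutation p = 0.2).

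The rest of the Krüppel-like family held changes that did pass. Of the other Krüppel-like factor genes, 14 were tested, of which 3 were past the criteria, all lower, and 7 had an unadjusted p under 0.05, again all lower, against 0.562% and 6.97% of all genes tested in that direction. Their median log2 fold change was -0.42, and was -0.27 on leaving out myd88+/+ replicate 3. Of the 14, 12 were lower and 2 higher, where 51.1% of all genes tested were higher. The largest fall was that of klf9, a glucocorticoid-inducible factor, with 44, 57 and 74 in myd88-/- libraries, against 413, 544 and 354 in myd88+/+ libraries (log2 fold change -2.89 ± 0.24, limma adjusted p = 0.00133). klf17 had 844, 694 and 1029 in myd88-/- libraries, against 1707, 1869 and 2404 in myd88+/+ libraries, and fell by 1.22 ± 0.18 (SE) on the log2 scale (limma adjusted p = 0.0220). klf13 had 24, 20 and 16 in myd88-/- libraries, against 68, 49 and 80 in myd88+/+ libraries, and fell by 1.66 ± 0.30 on the log2 scale (limma adjusted p = 0.0489). In these 3 genes the mutant and wild-type values did not overlap. With any library left out, klf9 stayed past the criteria, while klf17 did so in 2 of the 6 such fits, with limma adjusted p-values of 0.0969 and 0.0715 on leaving out myd88-/- replicate 1 or 2 and 0.122 and 0.0840 on leaving out myd88+/+ replicate 2 or 3, and klf13 in 0 of the 6, with limma adjusted p-values of 0.0573 to 0.182. Without an intensity trend the limma adjusted p was 0.140 for klf17 and 0.0950 for klf13, and klf13 was also short of the criteria with equal totals (0.0603), quantile normalization (0.0707) and a replicate block (0.145), and was not tested with a minimum mean of 50.

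Nearest to klf2 by role, klf4 is likewise raised by laminar flow in mammalian endothelium, and klf6a is an early response gene. klf4 had 47, 87 and 150 in myd88-/- libraries, against 189, 124 and 200 in myd88+/+ libraries (log2 fold change -0.97 ± 0.38, limma adjusted p = 0.333). klf6a had 3204, 3301 and 3885 in myd88-/- libraries, against 4670, 4089 and 6227 in myd88+/+ libraries (log2 fold change -0.51 ± 0.17, limma adjusted p = 0.249). The genotypes overlapped for klf4 and not for klf6a, which lies on the chromosome of myd88, 16.0 Mb away. Neither was past the criteria. At the other end, klf7b, klf11b, klf12a and klf12b had log2 fold changes between -0.073 and 0.046, and klf15 had 0.58 ± 0.39.

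**Figure D2:**
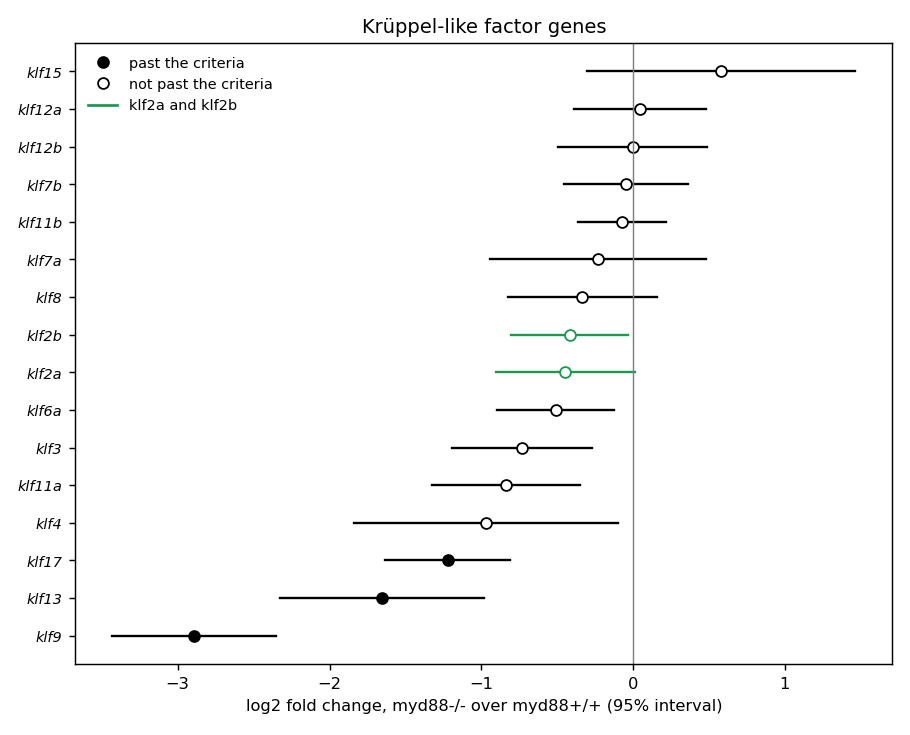
Log2 fold change of myd88-/- over myd88+/+ with its 95% interval (x axis) for klf2a and klf2b (green) and 14 other Krüppel-like factor genes. Filled points are past the criteria, and these are klf9 at -2.89, klf13 at -1.66 and klf17 at -1.22. klf2a at -0.45 and klf2b at -0.42 lie in the middle of the family.

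Genes that sense flow or lie on the route to klf2 were compared next. Among 23 tested, 14 were lower and 9 higher, where 51.1% of all genes tested were higher. Their median was -0.14 on the log2 scale. It was -0.039 on leaving out myd88-/- replicate 2 and -0.082 on leaving out myd88+/+ replicate 3. Of these, 1 was past the criteria, against 0.702% of all genes tested. This was heg1 (chromosome 9), the transmembrane receptor that anchors the CCM complex at endothelial junctions, a complex that restrains klf2 in zebrafish embryos. heg1 had 573, 435 and 590 in myd88-/- libraries, against 1593, 1136 and 1490 in myd88+/+ libraries, so the genotypes were far apart. It fell by 1.40 ± 0.17 (SE) on the log2 scale (limma adjusted p = 0.00871), with an adjusted p of 0.0525 on leaving out myd88+/+ replicate 3, and was past the criteria in the other 5 fits with a library left out. Without an intensity trend in the fit its limma adjusted p was 0.0951. The CCM complex genes themselves were close between genotypes: the log2 fold change was 0.11 ± 0.15 for krit1, -0.013 ± 0.21 for ccm2, -0.17 ± 0.13 for pdcd10a and 0.062 ± 0.13 for pdcd10b. rasip1, which works with heg1 in junction stability, had 1018, 1022 and 928 in myd88-/- libraries, against 1674, 1608 and 1202 in myd88+/+ libraries, apart but not past the criteria (log2 fold change -0.58 ± 0.15, limma adjusted p = 0.152).

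For the kinase route to klf2, in which Map3k3, Map2k5 and Mapk7 activate Mef2 factors, the members pointed in different directions. map3k3 had 266, 184 and 222 in myd88-/- libraries, against 136, 174 and 158 in myd88+/+ libraries (log2 fold change 0.51 ± 0.19), and mef2aa had 2040, 1948 and 1783, against 2381, 2353 and 2322 (log2 fold change -0.29 ± 0.11). Their limma adjusted p-values were 0.296 and 0.318. The log2 fold change was 0.27 ± 0.16 for map2k5, 0.13 ± 0.22 for mapk7, -0.40 ± 0.21 for mef2ca, -0.33 ± 0.17 for mef2cb and 0.26 ± 0.12 for mef2d. The flow-gated channel genes had -0.14 ± 0.19 for piezo1, 0.20 ± 0.13 for trpv4 and -0.23 ± 0.24 for pkd2, with limma adjusted p-values of 0.806, 0.556 and 0.735.

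Genes linked to flow or to klf2 downstream did not move together. Of 27 tested, 17 were lower and 10 higher, where 51.1% of all genes tested were higher. Their median was -0.17, and 1 was past the criteria, against 0.702% of all genes tested. The sign of this median rested on single libraries, since it was 0.024 and 0.036 on leaving out myd88-/- replicate 1 or 2 and -0.30 on leaving out myd88-/- replicate 3. This was the apelin receptor gene aplnra (chromosome 8), which rose, with 1617, 1498 and 1753 in myd88-/- libraries, against 811, 764 and 533 in myd88+/+ libraries (log2 fold change 1.23 ± 0.17, limma adjusted p = 0.0160). It was past the criteria in 3 of 6 fits with a library left out, and its limma adjusted p was 0.0839 and 0.0515 on leaving out myd88-/- replicate 1 or 2 and 0.0845 on leaving out myd88+/+ replicate 2. With a replicate block its limma adjusted p was 0.0709, and without an intensity trend 0.126. notch1b, the endocardial Notch receptor that depends on klf2a in the embryonic valve, had 1338, 1359 and 1617 in myd88-/- libraries, against 2438, 1902 and 1855 in myd88+/+ libraries (log2 fold change -0.52 ± 0.15, limma adjusted p = 0.185). Its genotypes did not overlap. thbd, the thrombomodulin gene and a KLF2 target in human endothelium, lay the other way, with 207, 191 and 282 in myd88-/- libraries, against 161, 122 and 150 in myd88+/+ libraries (log2 fold change 0.64 ± 0.20, limma adjusted p = 0.219). The fibronectin gene fn1b, a klf2a target in the zebrafish valve, had a log2 fold change of -0.17 ± 0.43. Its values were 4101, 6197 and 17292 in myd88-/- libraries, against 8208, 8136 and 9290 in myd88+/+ libraries. The value of 17292 was that of myd88-/- replicate 3. The duplicate fn1a had -0.51 ± 0.27 (limma adjusted p = 0.474). For wnt9b, which also depends on klf2a in the valve, the log2 fold change was -0.78 ± 0.58. Values of wnt9b were only 14.0 on average in myd88-/- and 25.7 in myd88+/+ libraries.

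All 3 GATA genes averaged higher in myd88-/- endocardium, and the genotypes were apart for gata4 alone. gata4 (ENSDARG00000098952, chromosome 20, 52952116 to 52967878) had 291, 254 and 272 in myd88-/- libraries, against 197, 196 and 220 in myd88+/+ libraries. The replicates of each genotype lay close together and the genotypes did not overlap. gata4 differed by 0.41 ± 0.14 (SE) in log2 units, with a 95% interval of 0.089 to 0.74, an unadjusted p of 0.0182 and a limma adjusted p of 0.264, and it was 0.36 to 0.47 with any library left out. For gata6 (chromosome 2, 4207209 to 4217887), values were 1618, 1554 and 1686 in myd88-/- libraries, against 1111, 1284 and 1616 in myd88+/+ libraries. The mutant libraries lay close together (SD 66.0) and the wild-type libraries were more spread (SD 257), with myd88+/+ replicate 3 inside the mutant range. The log2 fold change of gata6 was 0.29 ± 0.15 (SE), with a 95% interval of -0.048 to 0.63 and a limma adjusted p of 0.450. The estimate was 0.17 on leaving out myd88+/+ replicate 1 and 0.44 on leaving out replicate 3 of that genotype.

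gata5 (chromosome 23, 7379728 to 7391028) had 13163, 12864 and 11651 in myd88-/- libraries, against 9575, 11546 and 13363 in myd88+/+ libraries. The mutant values lay inside the wild-type range, and the log2 fold change of gata5 was 0.14 ± 0.16 (SE), with a 95% interval of -0.22 to 0.49 and a limma adjusted p of 0.752. The estimate of gata5 was 0.014 on leaving out myd88+/+ replicate 1 and 0.25 on leaving out replicate 3 of that genotype. Within a library, the log2 ratio of gata5 to gata4 averaged 5.52 ± 0.12 in the mutants and 5.80 ± 0.17 in the wild type (SD, n = 3 each), and that of gata6 to gata5 was -2.95 ± 0.14 and -3.11 ± 0.060. These ratios depend on transcript length, so only their difference between genotypes can be read, and neither difference was beyond the spread (exact permutation p = 0.2 for each, 0.5 adjusted over the 5 ratios compared). For gata6 to gata4 the difference of -0.12 had an exact permutation p of 0.4.

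Among partners and relatives of the GATA factors, 14 genes were tested, with a median of 0.22 on the log2 scale. Of these, 11 were higher and 3 lower, where 51.1% of all genes tested were higher. Of the 14, 0 were past the criteria in limma, against 0.702% of all genes tested. An unadjusted p under 0.05 was reached by 4, all in the higher direction, against 6.20% of all genes tested in that direction. hand2, a heart and endocardial factor that works with GATA proteins, had 12037, 13685 and 15056 in myd88-/- libraries, against 8946, 8508 and 10300 in myd88+/+ libraries. All mutant values were above all wild-type values, by 0.55 ± 0.15 on the log2 scale (limma adjusted p = 0.160). gata3 had 463, 438 and 463 in myd88-/- libraries, against 415, 293 and 311 in myd88+/+ libraries (log2 fold change 0.44 ± 0.16, limma adjusted p = 0.293). smad6b, an inhibitor of BMP signaling, had 9235, 7228 and 7045, against 5077, 6179 and 6480 (log2 fold change 0.40 ± 0.16, limma adjusted p = 0.324), and smad1, a BMP effector, had 0.44 ± 0.19 (limma adjusted p = 0.374). The GATA cofactor genes were close between genotypes, at 0.086 ± 0.16 for zfpm1, -0.065 ± 0.30 for zfpm2a and -0.025 ± 0.24 for zfpm2b. Cardiomyocytes also express GATA genes, and their markers had log2 fold changes of -0.41 to 0.35. Of these 17 markers, 0 had an unadjusted p under 0.05 in limma, against 13.2% of all genes tested. The 19 epicardial and fibroblast markers, with larger sums, had log2 fold changes of -0.66 to 0.75, also with 0 under 0.05. The part of either cell type in the GATA values was not tested. The log2 fold change of nkx2.5 was 0.23 ± 0.38.

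**Figure D3:**
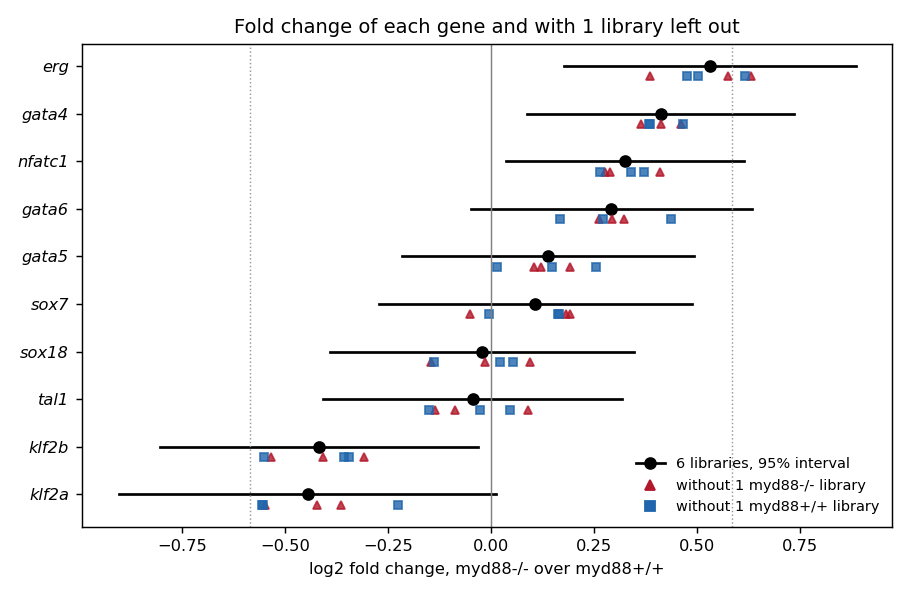
Log2 fold change of myd88-/- over myd88+/+ (x axis) for the 10 genes, with the 95% interval of the fit on 6 libraries in black and the values with 1 library left out as red triangles or blue squares. Dotted lines mark a 1.5-fold change. The values of erg, gata4, nfatc1 and gata6 stay above 0 and those of klf2a and klf2b below 0, while those of sox7, sox18 and tal1 lie on both sides.

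nfatc1 (ENSDARG00000036168, chromosome 19, 22216778 to 22304534) is activated when calcineurin dephosphorylates its protein, and it marks endocardium over other endothelium. Its values were 3676, 3747 and 3107 in myd88-/- libraries, against 2971, 2566 and 2850 in myd88+/+ libraries. Each mutant library was above each wild-type library, with myd88-/- replicate 3 the nearest to the wild-type range. The log2 fold change of nfatc1 was 0.33 ± 0.13 (SE), with a 95% interval of 0.036 to 0.62, an unadjusted p of 0.0314 and a limma adjusted p of 0.327. Besides nfatc1, 22 calcineurin and NFAT genes were tested. Their median on the log2 scale was -0.080. With 1 library left out it was -0.098 to -0.024, nearest to 0 without myd88+/+ replicate 1. The log2 fold changes of single genes lay between -0.31 and 0.64. In limma 0 of the 22 were past the criteria, against 0.702% of all genes tested. rcan1a, the calcineurin inhibitor gene that NFAT activates in other vertebrates, had 0.13 ± 0.15, and the calcineurin subunit genes ppp3cca, ppp3ccb, ppp3r1a and ppp3r1b lay between -0.11 and 0.024. An unadjusted p under 0.05 was reached by 1 of the 22, against 13.2% of all genes tested. This was gsk3bb, which encodes a kinase that returns NFAT proteins to the cytoplasm. It had 280, 271 and 237 in myd88-/- libraries, against 192, 175 and 185 in myd88+/+ libraries (log2 fold change 0.51 ± 0.15, limma adjusted p = 0.190).

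Of the 10 factors, erg had the largest difference between genotypes. erg (ENSDARG00000077304, chromosome 10, 161660 to 167782) had 1637, 1165 and 1259 in myd88-/- libraries, against 857, 1043 and 889 in myd88+/+ libraries. The genotypes did not overlap, and myd88-/- replicate 1 was the highest library. erg differed by 0.53 ± 0.16 (SE) in log2 units, with a 95% interval of 0.18 to 0.89, an unadjusted p of 0.00799 and a limma adjusted p of 0.197. The estimate was 0.39 on leaving out myd88-/- replicate 1 and 0.63 on leaving out replicate 2 of that genotype, and its unadjusted p stayed under 0.05 in all 15 alternatives run.

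Other ETS genes of endothelium were compared beside erg. fli1b had 2033, 1708 and 1410 in myd88-/- libraries, against 962, 1087 and 1347 in myd88+/+ libraries (log2 fold change 0.60 ± 0.17, limma adjusted p = 0.195). etv2, the factor that starts endothelial fate in the embryo, had 450, 328 and 468 in myd88-/- libraries, against 258, 238 and 284 in myd88+/+ libraries (log2 fold change 0.66 ± 0.17, limma adjusted p = 0.158). In both genes the genotypes were apart, as for erg. They are neighboring genes on chromosome 16 (42007090 to 42014272 for etv2, 42018041 to 42046881 for fli1b), so their changes may not be independent. fli1a, the closest relative of fli1b, had 8593, 7368 and 7827 in myd88-/- libraries, against 8433, 9792 and 7858 in myd88+/+ libraries, a difference of -0.13 ± 0.14 on the log2 scale (limma adjusted p = 0.737). ets1, ets2, elf1 and elk3 had log2 fold changes between -0.12 and 0.17. cdh5 encodes the endothelial cadherin and is a target of ERG in human cells. It had 3632, 4874 and 4553 in myd88-/- libraries, against 4525, 7333 and 8973 in myd88+/+ libraries (log2 fold change -0.63 ± 0.24, limma adjusted p = 0.316), so it lay in the direction opposite to erg. kdrl, the Vegf receptor gene, had -0.22 ± 0.15 (limma adjusted p = 0.577), and tie1, a receptor gene of endothelium, had 9593, 7307 and 6923, against 5093, 6026 and 6384 (log2 fold change 0.44 ± 0.16, limma adjusted p = 0.303).

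The SoxF genes sox7 and sox18 and the basic helix-loop-helix gene tal1 did not separate the genotypes. sox7 (chromosome 20, 19066596 to 19080593) had 4528, 3280 and 3238 in myd88-/- libraries, against 3646, 3652 and 2888 in myd88+/+ libraries, which differ by 0.11 ± 0.17 on the log2 scale (95% interval -0.27 to 0.49). A single mutant library, myd88-/- replicate 1, was above the wild-type range, and without it the change was -0.051. sox18 (chromosome 23, 8797143 to 8799880) had 1077, 896 and 770 in myd88-/- libraries, against 781, 1019 and 976 in myd88+/+ libraries, which differ by -0.021 ± 0.16 on the log2 scale (95% interval -0.39 to 0.35). Mutant libraries lay on both sides of the wild-type range. For tal1 (chromosome 22, 16535575 to 16545330), values were 1251, 1171 and 914 in myd88-/- libraries, against 980, 1288 and 1164 in myd88+/+ libraries, which differ by -0.045 ± 0.16 on the log2 scale (95% interval -0.41 to 0.32). The limma adjusted p-values of sox7, sox18 and tal1 were 0.830, 0.971 and 0.933. As ratios of myd88-/- to myd88+/+, the 95% intervals ran from 0.828 to 1.40 for sox7, from 0.763 to 1.27 for sox18 and from 0.754 to 1.25 for tal1, so changes of that size in either direction could not be told from no change with 3 libraries per genotype. The third SoxF gene, sox17, was near the limit of detection, with 0, 1 and 5 in myd88-/- libraries, against 21, 6 and 22 in myd88+/+ libraries (limma adjusted p = 0.196).

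Tal1 binds DNA in a complex with Lmo2, Ldb1 and E proteins, and 17 genes around this complex were tested. Of these, 12 were higher and 5 lower, where 51.1% of all genes tested were higher, and the median was 0.23 on the log2 scale. In limma 0 were past the criteria, against 0.702% of all genes tested. An unadjusted p under 0.05 was reached by 4 higher and 2 lower genes, against 6.20% and 6.97% of all genes tested. The median was 0.13 to 0.29 with 1 library left out, lowest when myd88+/+ replicate 2 was left out. lmo2, the bridging subunit, had 509, 443 and 798 in myd88-/- libraries, against 445, 272 and 220 in myd88+/+ libraries (log2 fold change 0.92 ± 0.29, limma adjusted p = 0.222), with an overlap of 1 pair of libraries. cbfa2t3, a corepressor, had 106, 89 and 114, against 46, 57 and 61 (log2 fold change 0.90 ± 0.21, limma adjusted p = 0.128). The E protein gene tcf12 lay the other way, with 4070, 3904 and 3930 in myd88-/- libraries, against 5755, 5772 and 4660 in myd88+/+ libraries (log2 fold change -0.44 ± 0.13, limma adjusted p = 0.198), and so did ldb2a (-0.67 ± 0.20, limma adjusted p = 0.209). gata2a, a partner of Tal1 in endothelium, had 0.27 ± 0.13 (limma adjusted p = 0.406). Hemoglobin genes, a sign of red cell RNA in which tal1 can also be found, were at 0 to 226 in all libraries, and their part in tal1 was not tested.

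Across the wider set of endothelial and endocardial transcription factors, 35 genes outside the 10 were tested, with a median of 0.14 on the log2 scale. Of the 35, 23 were higher and 12 lower, where 51.1% of all genes tested were higher. Of these, 0 were past the criteria in limma, against 0.702% of all genes tested. An unadjusted p under 0.05 was found for 7 higher genes and 1 lower gene, against 6.20% and 6.97% of all genes tested. The median was 0.075 to 0.20 with 1 library left out, lowest without myd88+/+ replicate 2. The smallest p was that of foxc1a, a forkhead factor of endocardium and mesoderm, with 794, 751 and 961 in myd88-/- libraries, against 498, 490 and 529 in myd88+/+ libraries (log2 fold change 0.72 ± 0.13, limma adjusted p = 0.0579). Its genotypes were well apart. tbx2b, a repressor of chamber genes, had 274, 257 and 294 in myd88-/- libraries, against 153, 229 and 135 in myd88+/+ libraries (log2 fold change 0.71 ± 0.21, limma adjusted p = 0.197). zeb2a and meis1a also had an unadjusted p under 0.05, with log2 fold changes of 0.36 ± 0.14 and 1.00 ± 0.38. Their limma adjusted p-values were 0.308 and 0.318. meis1a had 46, 47 and 118 in myd88-/- libraries, against 36, 34 and 25 in myd88+/+ libraries. On leaving out myd88-/- replicate 3 its log2 fold change was 0.56 (limma unadjusted p = 0.104). For foxc1b, the duplicate of foxc1a, the log2 fold change was -0.23 ± 0.14, and for tbx20, a factor of endocardium and myocardium, it was 0.11 ± 0.18.

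**Figure D4:**
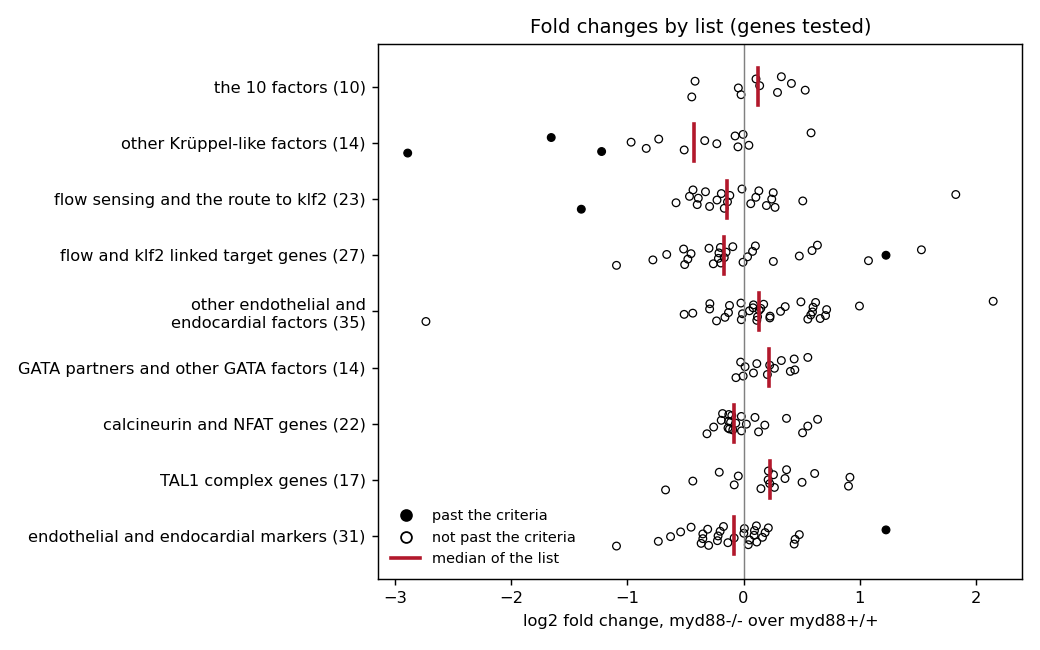
Log2 fold change of myd88-/- over myd88+/+ (x axis) of each gene tested in the 10 factors and in 8 lists around them, with the number tested in brackets, filled points for genes past the criteria and red lines for the medians. The medians run from -0.42 in the other Krüppel-like factors to 0.23 in the TAL1 complex genes, and hand2, tbx20, tbx5a, gata2a, aplnra and aplnrb are each in more than 1 of these lists.

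Because a library can hold more or less endothelial RNA, each factor was also taken relative to the mean log2 level of the 31 endothelial and endocardial markers in the same library. That mean was 10.6, 10.1 and 10.5 in myd88-/- libraries, against 10.6, 10.5 and 10.4 in myd88+/+ libraries, and was lowest in myd88-/- replicate 2. Some of the 31 markers differed by genotype themselves, so this mean is not a pure measure of endothelial RNA. Of them, 1 was past the criteria, aplnra, against 0.702% of all genes tested. An unadjusted p under 0.05 was reached by 3 in the higher and 4 in the lower direction, against 6.20% and 6.97% of all genes tested. On this scale erg and gata4 did not overlap between genotypes: erg was at -0.0017 ± 0.21 in the mutants and -0.61 ± 0.18 in the wild type (SD, n = 3 each), and gata4 at -2.30 ± 0.21 and -2.79 ± 0.19. The exact two-sided permutation p was 0.1 for each, the smallest possible, and 0.5 adjusted over the 10 factors. For klf2a, nfatc1 and the other 6 factors the genotypes overlapped on this scale. The share of all genes tested without overlap was not worked out on this scale. On the plain values it was 18.1%. The difference was -0.37 for klf2a and -0.34 for klf2b (exact permutation p = 0.5 and 0.3), and with cdh5 and kdrl alone as the comparison it was -0.022 and 0.0063, where those markers had log2 fold changes of -0.63 and -0.22.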

How the data were processed

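Per the study's methods and labels, the authors trimmed reads (Trimmomatic 0.39), aligned them to danRer11 (STAR 2.7.10a), took out duplicate, multimapping, ribosomal and mitochondrial reads (Picard 3.0.0), counted reads over exons without those on more than 1 gene (featureCounts 2.0.4) and normalized with DESeq2 1.36.0. The deposited values are a score, gene counts divided by a size factor and rounded, so exact counts were not used. Whether counting used strand is not given in the sources used here. None of the 10 genes overlaps another listed gene. Values are not per length, so levels were not compared between genes.

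limma 3.58.1 (R 4.3.3) was fitted to log2(value + 1) with an intensity trend and genotype as the only term, over the 16383 genes with a mean above 5. Fold changes on this scale understate those of low genes. The fit was also run on simulated counts, drawn independently for each gene. Such counts hold no spread shared between genes, so they do not show how the fit deals with a library that stands apart. Exact permutation tests were two-sided over 3 against 3 libraries. The p-values set the difference between genotypes against the spread between pools. In limma that spread is estimated with the aid of all genes tested. All 10 identifiers matched a table of gene names. The genes and 13 lists were chosen by known role, with earlier results of these data known. Named were the 10 genes, myd88 and defining markers, of which mpx is not among the genes listed. Also named were list genes past the criteria or with an unadjusted p under 0.05. The 3 genes nearest in profile to klf2a, klf2b and nfatc1 were named too. Other list genes named for their role were chosen after their values were seen. Alternatives changed the pseudocount, filter, scaling, variance model, block and libraries.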

Additional observations from a re-analysis of the deposited data

How the results depend on the processing

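Over 15 alternatives of the fit, the number of the 10 factors past the criteria stayed at 0, and klf2a, klf2b, gata4, gata5, gata6, nfatc1 and erg kept their direction. The count over all genes was 115 and became 25 without an intensity trend and 28 to 255 with 1 library left out (255 without myd88-/- replicate 3, 28 without myd88+/+ replicate 2). The direction of tal1 and sox18 turned with libraries scaled to equal totals (0.015 and 0.038) and with quantile normalization (0.017 and 0.022). With 1 library left out, the log2 fold change was -0.15 to 0.090 for tal1, -0.051 to 0.19 for sox7 and -0.15 to 0.096 for sox18, and the log2 ratio differed by -0.21 to 0.13 for klf2a over klf2b and by -0.30 to 0.027 for sox18 over sox7. Relative to endothelial markers it was -0.17 to 0.25 for tal1 and -0.10 to 0.25 for sox18, and 0.0063 for klf2b against cdh5 and kdrl alone. myl7 was at 0.0057 with equal totals and 0.035 with quantile normalization, and at -0.20 to 0.11 with 1 library left out, and tcf21 at -1.03 to 0.22. The cause was not tested.

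Same-numbered libraries did not deviate together (Pearson r across genes of -0.12, 0.13 and -0.14). So few correlations cannot exclude that the numbers pair the libraries. With the replicate block, 45 genes were past the criteria, 0 of them among the 10 factors, and klf2a had an unadjusted p of 0.0252, erg of 0.0192 and nfatc1 of 0.0526. The planned order of levels per exon length was not run, since no exon lengths were used here.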

Other observations

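For klf2a, klf2b and nfatc1, the 3 genes with the most similar profile were sought among 8901 genes with a mean value of at least 100, by the mean absolute difference of log2 values, each centered on its mean over the 6 libraries. These are descriptions over 6 libraries that share the genotypes. For klf2a they were UBB (0.070), klf6a (0.082) and tmem132e (0.084), against a median of 0.32 over all genes compared. UBB, annotated as a ubiquitin gene by its symbol, had 5895, 5702 and 7116 in myd88-/- libraries, against 7214, 6852 and 9776 in myd88+/+ libraries, so the highest library was the same as for klf2a. For klf2b they were kdr (0.063), arnt (0.070) and mast2 (0.072), against a median of 0.31, and for nfatc1 they were atg5 (0.030), abhd14b (0.040) and exoc1 (0.040), against a median of 0.23. kdr, a Vegf receptor gene, had 853, 915 and 1080 in myd88-/- libraries, against 1329, 1145 and 1418 in myd88+/+ libraries (log2 fold change -0.45 ± 0.14, limma adjusted p = 0.217).

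Among the 10 factors, tal1 and sox18 had the most similar profiles, with a mean absolute difference of 0.056 on the log2 scale, followed by gata5 and gata6 at 0.083 and gata4 and gata6 at 0.11. The duplicates klf2a and klf2b differed by 0.185.

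Other genes of the lists with an unadjusted p under 0.05, each short of the criteria, are given by their log2 fold change of myd88-/- over myd88+/+. In the Krüppel-like family these were klf3 (-0.73) and klf11a (-0.84). Around flow they were the polycystin gene pkd1b (1.83), the protein kinase D gene prkd2 (-0.39) and the chemokine receptor gene cxcr4b (-1.09). The Notch receptor gene notch1a (0.59) was another, and lay opposite to notch1b. Values of pkd1b were near the limit of detection, with 7, 5 and 27 in myd88-/- libraries, against 1, 2 and 4 in myd88+/+ libraries. The 27 was that of myd88-/- replicate 3, and without this library pkd1b was not tested. Around Tal1 the genes with such a p were the Ldb1 partners ssbp3a (0.50) and ssbp4 (0.61). Among endothelial markers they were flt1 (-0.54), esama (0.44) and she (-0.73). Of these, flt1 lies on the chromosome of myd88, 1.56 Mb away, so linkage to the mutated locus and an effect of MyD88 cannot be told apart. Among markers of other cells they were the macrophage genes marco (-1.83), mfap4 (-1.40), cd74a (-0.87), c1qa (-0.999) and ctss2.2 (-0.84), the cytokine gene il1b (-1.53) and thbs1b (0.48).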
